A study of Mus musculus with 17 samples.

Results

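The zinc finger genes *Zfp980*, *Zfp987*, *Zfp600*, *Zfp992*, *Zfp981*, *Rex2*, *Zfp991*, *Zfp985*, *Zfp979* and *Zfp534* lie in a row on mouse chromosome 4. They are 10 of the 54532 genes in the deposited expression table, and were found by symbol, each matching 1 row. In the GRCm38.p6 build they span chr4:145670685-147702553, a stretch of 2.03 Mb. *Zfp979* and *Zfp534*, the last of them, are on the minus strand, and the other 8 are on the plus strand. The 10 genes were chosen by their position and family with their TPM in these 17 libraries already known, so the levels of the 10 genes and their differences are given as a description and carry no test. The span also holds 6 zinc finger genes that are not in the set, *Zfp986*, *Zfp993*, *Zfp989*, *Zfp988*, *Zfp978* and *Zfp982*, which are treated as neighbours.

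The values come from RNA-seq of R1/E mouse embryonic stem cells (mESCs), in which the response to retinoic acid (RA) was compared between wild-type and *Usb1* knockout cells. Wild-type cells were sequenced without RA (day 0, 2 libraries), after 1 day of RA (day 1, 3 libraries) and after 3 days of RA (day 3, 3 libraries). *Usb1* knockout cells were sequenced at the same days, with 3 libraries each, which makes 17 libraries in 6 groups. The knockout was made with CRISPR/Cas9 and the knockout cells are all of 1 line, KO-1, so the knockout and the clone cannot be told apart. Levels are in TPM, a measure of transcript abundance scaled to gene length and library size, so that genes can be compared with one another. *Usb1*, which encodes the exonuclease that trims the 3′ end of U6 snRNA, had 32.0 to 56.9 TPM over the wild-type libraries and 14.7 to 21.4 TPM over the knockout libraries. RNA was still counted on the gene in the knockout.

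KRAB zinc finger proteins bind DNA through arrays of zinc fingers, and many of them recognise retrotransposons. Their KRAB domain recruits the corepressor Trim28 (also called KAP1), which in turn brings the histone methyltransferase Setdb1 and heterochromatin proteins to the bound site. Genes of this family often stand in clusters of close duplicates that arose separately in different mammalian lineages, and many are expressed in embryonic stem cells. The targets of each of the 10 proteins are not described here.

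The first listed promoters of 8 of these genes were close copies of one another. RefSeq promoter sequences (GRCm38.p6), which run from 250 bases before the start of transcription to 50 bases after it, matched 8 of the 10 genes, all except *Zfp991* and *Zfp992*. The first listed start of each gene was used. Of these, 5 are printed here, chosen to cover the first gene of the row, the promoter least like the rest (*Zfp981*), one that matches another at every aligned base (*Rex2*), the gene with the most distinctive transcript (*Zfp985*) and the last gene of the row. They are written 5′ to 3′ along the strand of the gene, and the capitals mark the one stretch of 15 bases that all 8 promoters share.
*Zfp980* (chr4:145670447-145670746, plus strand): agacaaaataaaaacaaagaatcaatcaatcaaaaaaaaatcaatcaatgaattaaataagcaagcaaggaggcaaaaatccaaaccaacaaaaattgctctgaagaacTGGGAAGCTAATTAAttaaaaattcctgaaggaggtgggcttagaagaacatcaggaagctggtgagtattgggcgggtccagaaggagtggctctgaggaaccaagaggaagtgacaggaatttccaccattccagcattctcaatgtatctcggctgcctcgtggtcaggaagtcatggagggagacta
*Zfp981* (chr4:146514670-146514969, plus strand): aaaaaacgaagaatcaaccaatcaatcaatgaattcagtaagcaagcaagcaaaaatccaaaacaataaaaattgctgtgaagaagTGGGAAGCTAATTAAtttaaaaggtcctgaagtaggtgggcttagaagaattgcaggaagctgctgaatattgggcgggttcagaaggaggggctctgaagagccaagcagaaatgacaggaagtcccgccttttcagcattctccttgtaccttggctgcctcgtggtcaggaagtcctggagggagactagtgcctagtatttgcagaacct
*Rex2* (chr4:147021600-147021899, plus strand): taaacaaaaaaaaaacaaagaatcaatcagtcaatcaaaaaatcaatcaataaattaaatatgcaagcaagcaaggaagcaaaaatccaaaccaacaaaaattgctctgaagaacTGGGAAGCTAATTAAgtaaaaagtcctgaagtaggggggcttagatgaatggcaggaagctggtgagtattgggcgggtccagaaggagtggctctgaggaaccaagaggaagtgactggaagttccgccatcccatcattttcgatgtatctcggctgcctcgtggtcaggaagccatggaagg
*Zfp985* (chr4:147553027-147553326, plus strand): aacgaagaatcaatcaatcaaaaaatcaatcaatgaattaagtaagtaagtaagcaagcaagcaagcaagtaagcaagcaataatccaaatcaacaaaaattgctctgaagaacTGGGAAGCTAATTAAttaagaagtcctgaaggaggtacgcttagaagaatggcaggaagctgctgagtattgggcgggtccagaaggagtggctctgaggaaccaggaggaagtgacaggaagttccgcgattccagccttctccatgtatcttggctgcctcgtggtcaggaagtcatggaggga
*Zfp534* (chr4:147702582-147702881, minus strand): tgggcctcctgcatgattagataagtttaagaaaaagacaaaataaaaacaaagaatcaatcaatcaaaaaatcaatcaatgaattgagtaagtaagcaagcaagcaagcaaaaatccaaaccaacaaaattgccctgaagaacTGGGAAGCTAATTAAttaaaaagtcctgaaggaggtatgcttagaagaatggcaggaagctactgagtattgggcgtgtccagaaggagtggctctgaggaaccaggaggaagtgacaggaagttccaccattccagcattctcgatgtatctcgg

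Over the 28 pairs of the 8 promoters, identity ran from 85.6% to 100% of the aligned bases, with a median of 90.8%. The promoter at a second listed start of *Zfp600*, which is not among the 8, was less alike. Its identity to the 8 ran from 57.4% (*Zfp979*) to 63.3% (*Zfp987*). The promoters of *Zfp600* and *Rex2* were the same at all of 299 aligned bases, with a gap of 1 base between them. Those of *Zfp987* and *Zfp534* were 98.8% identical over 251 aligned bases, although these genes are on opposite strands near opposite ends of the row. The shared stretch of 15 bases began at positions -164 to -106 relative to the start of transcription. Searched on both strands, it was found in 11 of 27025 mouse promoters (0.0407%), the first listed of each gene. All 11 were on chromosome 4, in the span of the 10 genes or next to it. Later starts were not searched, such as the second of *Zfp982*, whose promoter is 89.6% identical to that of *Zfp987*. Besides the 8 genes, its carriers were *Gm13212*, *Zfp988* and *Zfp984*.

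Other short motifs were searched on both strands in the same windows. TAATTA, a core recognised by many homeodomain proteins, was in 8 of 8 promoters, where the shared stretch contains it, and in 5.314% of all promoters. CCAAT was in 8 of 8 (37.92% of all promoters) and the GC box GGGCGG in 6 of 8 (35.91%), with *Zfp987* and *Zfp534* as the exceptions. TATAAA was in 0 of 8 (14.16%), and AGGTCA, a half-site bound by nuclear receptors such as those for RA, was in 0 of 8 (16.04%). These matches describe letters in windows of 300 bases and say nothing about binding. The 8 promoters are close copies, so a count out of 8 does not hold 8 separate observations.

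The transcripts also resemble one another, which bears on how reads could be assigned to each gene. Of all windows of 100 bases in the transcripts of a gene in GENCODE M21, the share found in no other gene was 98.27% for *Zfp985*, 87.76% for *Zfp981*, 78.54% for *Zfp979* and 71.4% for *Zfp992*. It was 59.76% for *Zfp534* and 54.43% for *Zfp980*. For the other 4 genes it was lower, at 32.25% for *Zfp600*, 29.66% for *Zfp991*, 29.19% for *Zfp987* and 24.67% for *Rex2*. Of the windows of *Rex2*, 66.66% were also present in *Zfp600*, and of the windows of *Zfp987*, 52.9% were present in *Gm8935*. How reads matching several genes were counted is not given in the sources used here. The split of reads among genes that share windows, these 4 most of all, is therefore uncertain, and its part in the results was not tested. Shared windows were not computed for the neighbours.

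**Figure D1:**
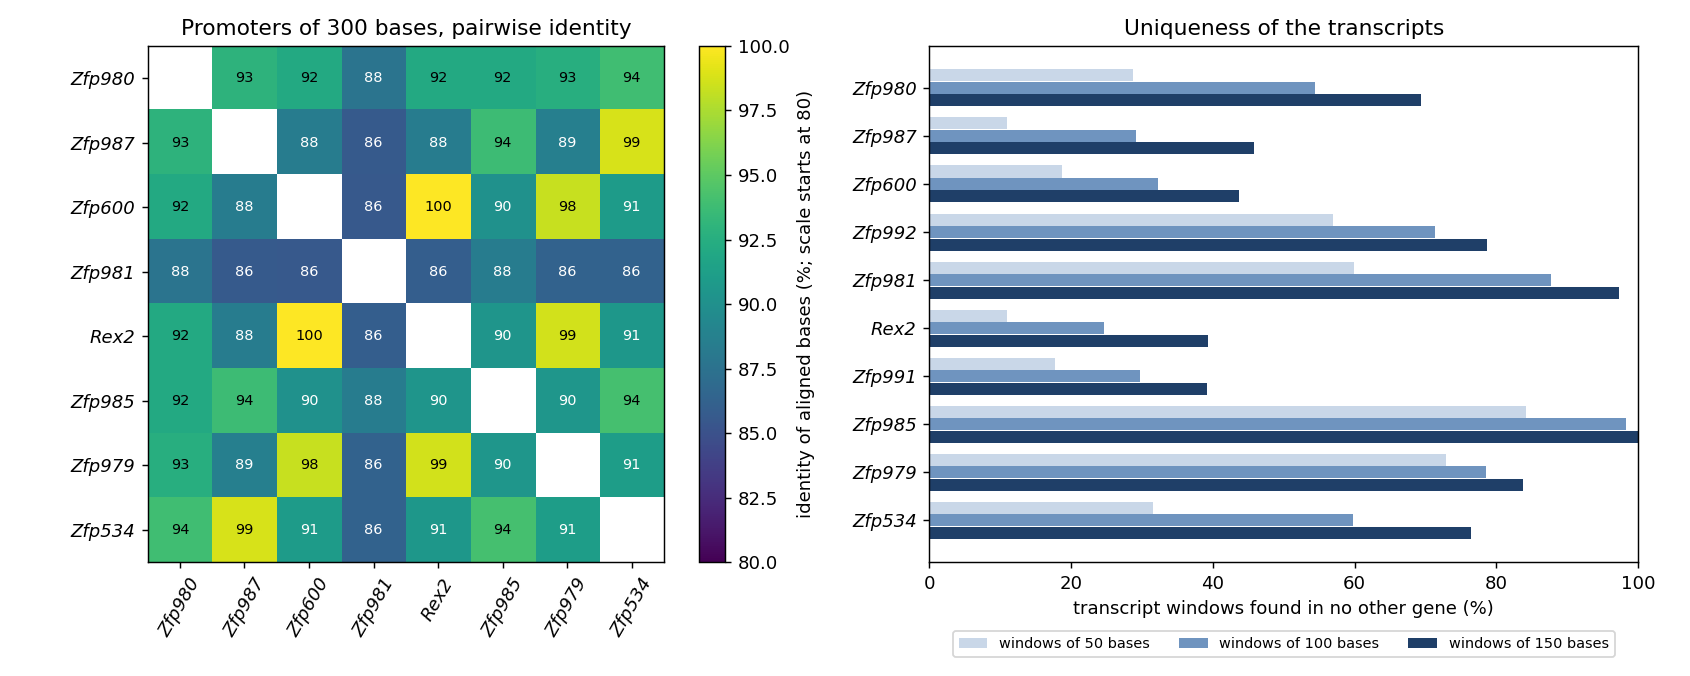
Left, percent identity of the aligned bases for each pair of the 8 promoters with a RefSeq entry (colour scale from 80 to 100%); right, percent of transcript windows of 50, 100 and 150 bases found in no other gene, for the 10 genes in chromosomal order. The *Zfp600* and *Rex2* promoters match at every aligned base, the *Zfp981* promoter stands apart from the rest, and at 100 bases the share of unique windows runs from 24.67% (*Rex2*) to 98.27% (*Zfp985*).

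Reads recovered on genes numbered 15404379 to 17300186 per library, and the 10 genes had 34 to 2239 of them each per library. The lowest depth was therefore at day 3 in the knockout, with 34 to 360 reads per gene and library. Both wild-type libraries at day 0 stood apart in their weakly expressed genes, with 239 (replicate 1) and 1341 (replicate 2) genes of 1 read, as did knockout replicate 1 at day 3 with 1212, while the other libraries had 2135 to 2448. Pluripotency genes (*Pou5f1*, *Nanog*, *Sox2*, *Esrrb*, *Zfp42* and *Klf4*) had 4927 to 5394 TPM in sum at day 0 over both genotypes. At day 1 they had 2836 to 2922 TPM in wild-type cells and 3587 to 3678 TPM in the knockout. At day 3 they had 312 to 353 TPM in wild-type cells, with 510 to 578 TPM in the knockout. Fibroblast markers summed to 4.65 to 9.01 TPM at day 0 and day 1 and to 44.2 to 79.6 TPM at day 3. Genes of 2-cell-like cells summed to 0 to 15.9 TPM over all libraries. At day 1 they had 13.3 to 15.9 TPM in wild-type and 2.88 to 6.10 TPM in knockout libraries. Of the 8 tested, 3 were called lower in the knockout at day 1 (limma, against 1.76% of all genes tested). *Cyp26a1*, *Rarb*, *Hoxb1*, *Stra8* and *Crabp2*, which respond to RA, were each called higher at day 1 in both genotypes (limma). The part of these other cell types in the levels below was not tested, and in bulk RNA, fewer expressing cells and less RNA per cell cannot be told apart.

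In self-renewing wild-type cells (day 0) the 10 genes ranged from 13.9 to 111 TPM in their group means. *Zfp979* was the highest, with 114 and 108 TPM in the 2 libraries. *Zfp985* followed with 56.1 and 44.6 TPM, and *Rex2*, whose libraries lay between these, with 46.0 and 45.0 TPM. *Zfp980* (41.5 ± 1.08 TPM, SD, n = 2) and *Zfp534* (41.2 ± 1.95 TPM, SD, n = 2) were close to each other, and their libraries overlapped. *Zfp987* had 39.1 and 25.9 TPM, the widest gap in TPM between the wild-type libraries among the 10. *Zfp981* (27.8 TPM), *Zfp991* (25.6 TPM) and *Zfp992* (24.9 TPM) formed a group with overlapping libraries, and *Zfp600* was the lowest with 11.4 and 16.4 TPM. Together the 10 genes summed to 414 ± 28.2 TPM (SD, n = 2).

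The knockout libraries without RA summed to 147 ± 6.23 TPM (SD, n = 3), or 35.5% of the wild-type level. *Zfp981* was at 4.59, 5.56 and 5.21 TPM in the knockout libraries, against 30.1 and 25.4 TPM in wild-type cells, a ratio of wild-type to knockout means of 5.42. *Rex2* was at 8.37, 9.24 and 10.1 TPM, a ratio of 4.93. These are the largest and the next largest ratios among the 10, and neither gene has a knockout library near the wild-type ones. *Rex2* shares 66.66% of its windows of 100 bases with *Zfp600*, so the split of reads between these 2 genes is uncertain. *Zfp600* had 3.20, 2.50 and 2.86 TPM (ratio 4.88) and *Zfp980* had 11.0, 9.77 and 9.64 TPM (ratio 4.09). *Zfp985*, the gene whose transcript shares the least sequence with others, had 17.8, 18.4 and 17.8 TPM, a ratio of 2.80. *Zfp979* stayed the highest of the 10 at 45.3, 49.9 and 42.9 TPM, a ratio of 2.41.

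The smallest difference at day 0 was that of *Zfp992*, with 19.4, 16.6 and 19.5 TPM in the knockout and 25.8 and 23.9 TPM in wild-type cells, a ratio of 1.34. Its closest relative by transcript sequence, *Zfp991*, had 12.6, 12.1 and 10.1 TPM against 26.8 and 24.5 TPM, a ratio of 2.22. In 10 of 10 genes every wild-type library at day 0 was above every knockout library, against a background of 21.3% of all 21871 genes tested. On the log2(TPM + 1) scale, which understates the change of weakly expressed genes, the knockout minus wild-type difference ranged from -2.23 to -0.41, with SEs of 0.11 to 0.22 and a median of -1.48, where the median over all genes tested was 0. By the rule used for calls (an adjusted p under 0.05 in limma and at least a 2-fold change), 9 of 10 genes were called lower, all but *Zfp992*, against 1.45% of all genes tested. Since the genes were chosen with these values known, nothing is read from that count. The same holds for every later count of calls among the 10, which is given only as a description. When 1 of the wild-type libraries at day 0 was left out, the median was -1.30 (without replicate 1) or -1.64 (without replicate 2).

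**Figure D2:**
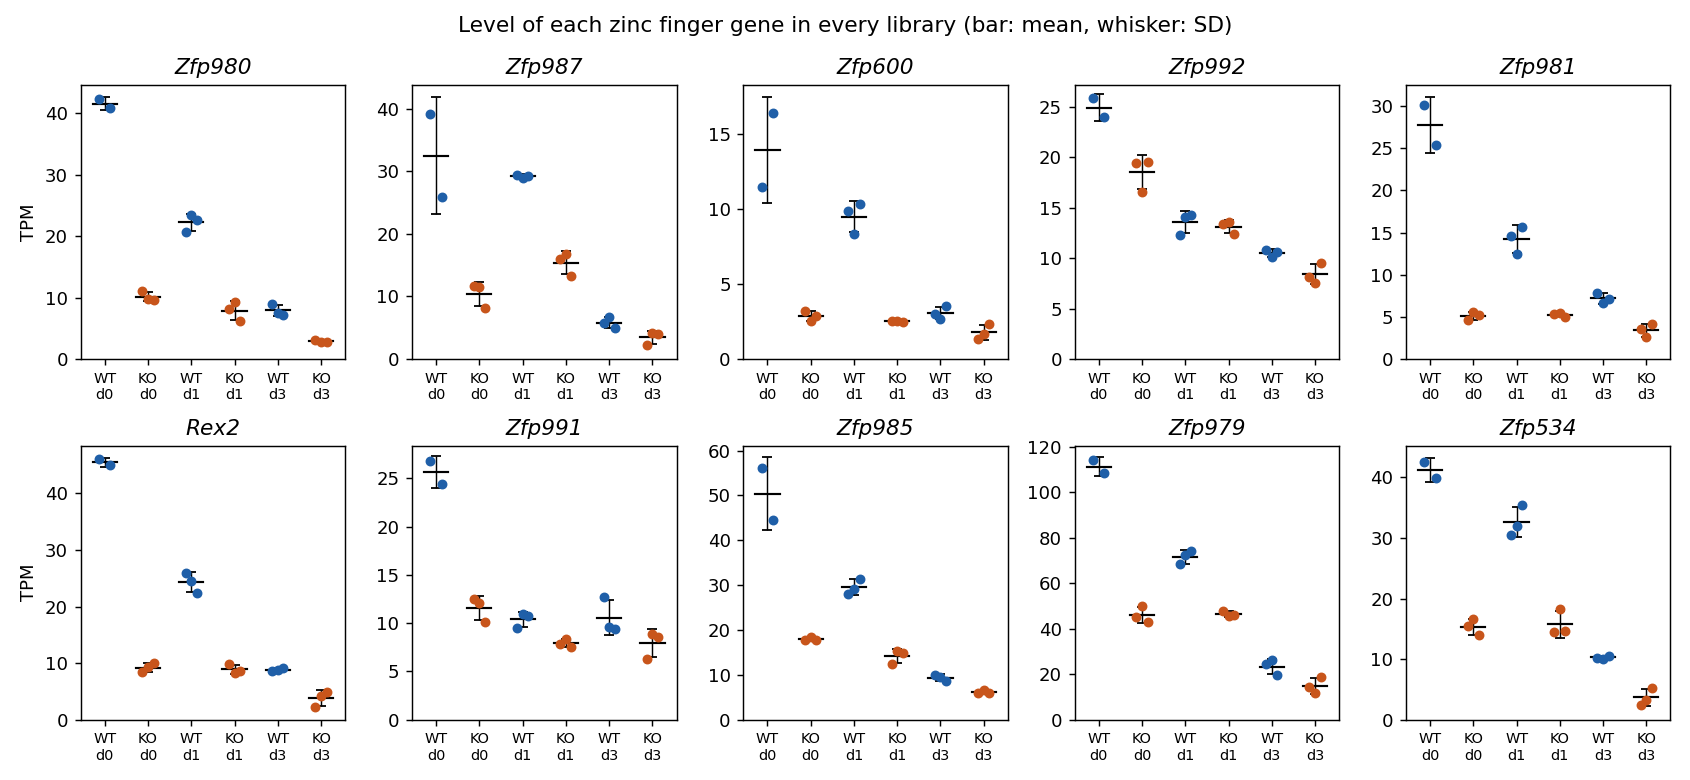
TPM (linear axis from 0, with its own range for each gene) of the 10 genes in chromosomal order, in wild-type (WT, blue) and *Usb1* knockout (KO, orange) cells at day 0, 1 and 3 (d0, d1, d3). Each point is a library, the bar is the mean and the whisker the SD (n = 2 for wild-type day 0 and n = 3 elsewhere); wild-type day 0 has the highest mean in all 10 genes and knockout day 3 the lowest.

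During RA treatment the levels fell in wild-type cells. The sum of the 10 genes was 257 ± 8.59 TPM at day 1 and 96.8 ± 5.87 TPM at day 3 (SD, n = 3 each), or 62.0% and 23.4% of day 0. *Zfp985* went to 28.1, 29.1 and 31.5 TPM at day 1 and to 10.1, 9.50 and 8.56 TPM at day 3, so that the groups of the 3 days did not overlap. *Zfp979* went to 68.2, 72.2 and 74.0 TPM and then to 24.3, 26.2 and 19.6 TPM. *Rex2* had 25.9, 24.6 and 22.5 TPM at day 1, and 8.55, 8.80 and 9.07 TPM at day 3. In all 3 genes each day was lower than the day before in every library.

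*Zfp987* and *Zfp991* took other courses in wild-type cells. *Zfp987* was at 29.4, 28.9 and 29.3 TPM at day 1, between its 2 values at day 0, and went to 5.76, 6.68 and 4.96 TPM at day 3, the largest fold between day 0 and day 3 among the 10 (5.60). *Zfp991* had already reached 9.49, 10.9 and 10.8 TPM at day 1, and its libraries of day 3 gave 12.7, 9.64 and 9.38 TPM, so its day 1 and day 3 libraries overlapped. Between day 0 and day 1, 9 of 10 genes were lower in every library, against 18.5% of all genes tested, with a median ratio of day 0 to day 1 of 1.77. Between day 0 and day 3 this held for 10 of 10 genes, against 26.2%, with ratios of 2.37 (*Zfp992*) to 5.60 and a median of 4.65. The call rule marked 1 gene at day 1 (*Zfp991*, against 3.88% of all genes tested called lower) and 10 at day 3 (against 9.68%). The medians on the log2 scale were -0.79 at day 1 and -2.06 at day 3, beside 0.17 and 0.10 over all genes tested.

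In knockout cells the first day of RA changed the levels little. The sum was 137 ± 6.17 TPM at day 1 (SD, n = 3), and the median ratio of day 0 to day 1 was 1.09. *Zfp980*, *Zfp985*, *Zfp991* and *Zfp992* were lower at day 1 in every library, *Zfp987* was higher in every library, and the libraries of the other 5 genes overlapped. *Zfp987* went from 11.6, 11.4 and 8.14 TPM at day 0 to between 13.3 and 16.8 TPM in the 3 libraries of day 1. *Zfp979*, with 47.8, 45.6 and 45.8 TPM at day 1, stayed within the range of its day 0 libraries. Among all genes tested, 19.7% were lower and 25.2% higher at day 1 in every library.

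At day 3 all 10 genes were below day 0 in the knockout libraries (against 24.7% of all genes tested), with a median ratio of day 0 to day 3 of 2.65 and a sum of 56.6 ± 8.64 TPM (SD, n = 3). *Zfp534* went from 15.4, 16.6 and 13.9 TPM to 2.48, 3.31 and 5.31 TPM, a ratio of 4.14, the largest in the knockout. *Zfp600*, already at 2.85 TPM on average at day 0, went to 1.33, 1.66 and 2.33 TPM, a ratio of 1.61. The smallest ratio, 1.46, was that of *Zfp991*, with 6.31, 8.90 and 8.61 TPM at day 3. The call rule marked 0 of 10 genes at day 1 (2.87% of all genes tested were called lower) and 7 at day 3 (8.04%), the exceptions at day 3 being *Zfp600*, *Zfp981* and *Zfp991*.

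The genotypes were thus nearer each other on the log2 scale after RA. At day 1 the ratio of wild-type to knockout means was 1.03 to 3.78 (median 2.07), and in 9 of 10 genes the libraries did not overlap (against 30.4% of all genes tested that were lower in the knockout). The exception was *Zfp992*, with 13.4, 13.5 and 12.4 TPM in the knockout, inside the wild-type range of 12.3 to 14.3 TPM. Its difference of -0.04 on the log2 scale at day 1 became 0.16 with quantile normalization, 0.18 with an equal median and 0.06 with voom on recovered reads, so its direction at that day depends on the scaling. At day 3 the ratio was 1.25 to 2.78 (median 1.71), and in 10 of 10 genes the libraries did not overlap (against 11% of all genes tested). *Zfp534* had the largest ratio at day 3, with 10.3 ± 0.249 TPM (SD, n = 3) in wild-type cells and a ratio of 2.78, beside its ratio of 2.69 at day 0. The median log2 difference was -1.48 at day 0, -1.01 at day 1 and -0.63 at day 3, beside 0, -0.13 and 0 over all genes tested. The call rule marked 6 of 10 genes as lower at day 1 (1.76% of all genes tested) and 3 at day 3 (0.773%), namely *Zfp980*, *Rex2* and *Zfp534*.

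The difference between the genotypes in the change from day 0 was positive for 10 of 10 genes at day 1 (0.36 to 0.95, median 0.59). It was also positive for 10 of 10 at day 3 (0.07 to 1.38, median 0.83). A positive value means a smaller fall in the knockout or, for some genes at day 1, no fall. The knockout change at day 1 was 0.53 for *Zfp987*, 0.04 for *Zfp534* and *Zfp981*, and 0.01 for *Zfp979*. For *Zfp534*, the lowest at day 3, the genotype difference turned to -0.03 with quantile normalization, -0.02 with an equal median and -0.17 with voom. *Zfp600*, *Zfp981* and *Rex2* were called in this comparison at day 3 (1.17% of all genes tested were called in this direction), and none of the 10 at day 1 (0.187%). The same wild-type and knockout libraries at day 0 enter these values and those above. The RA-responsive genes also differed between the genotypes: the sum of *Cyp26a1*, *Rarb*, *Hoxb1*, *Stra8* and *Crabp2* was 1042 to 1103 TPM over the wild-type libraries of day 1, against 503 to 545 TPM for the knockout. At day 3 it was 763 to 899 TPM against 480 to 538 TPM. At day 1, *Crabp2* (-2.78), *Hoxb1* (-2.04) and *Stra8* (-1.13) were called lower in the knockout, as were *Cyp26a1* (-1.70) and *Stra8* (-1.22) at day 0 and *Cyp26a1* (-2.19) at day 3 (log2 differences, limma), and the part of this in the values of the 10 genes was not tested. Knockout cells at day 0 were also set beside wild-type cells at day 3. The ratio of wild-type day 3 to knockout day 0 means ran from 0.508 (*Zfp979*) to 1.40 (*Zfp981*), with a median of 0.725.

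**Figure D3:**
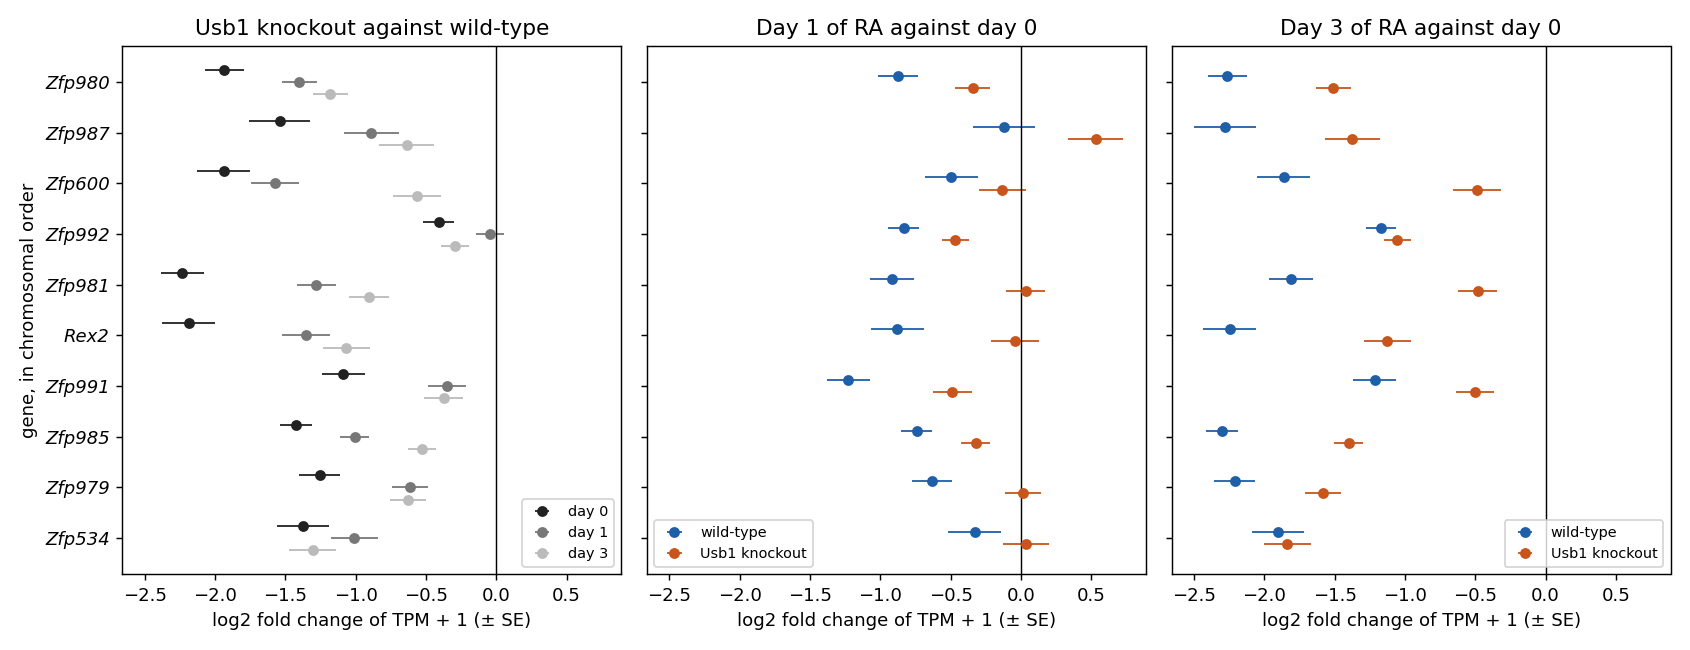
log2 fold change of TPM + 1 (x axis, point) and its SE (line) for the 10 genes in chromosomal order: knockout minus wild-type at day 0, 1 and 3 (left), and day 1 (middle) and day 3 (right) against day 0 in each genotype. All points of the left panel are below 0, and the knockout points of the middle panel spread from -0.49 to 0.53 around 0.

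The levels of the 10 genes went together over the 17 libraries. On the log2 scale the correlation of each gene with the mean of the other 9 was 0.912 to 0.983, except for *Zfp991* (r = 0.743) and *Zfp992* (r = 0.796). These values describe libraries that share groups and carry no test. The 10 genes were chosen with these levels known, and some of them share transcript windows, so nothing is read from these correlations. Among the genes outside the set, those most like the mean of the 10 were *Eif2d*, a translation initiation factor (r = 0.984), *2410141K09Rik* (r = 0.979), *Rbbp5*, a subunit of histone H3K4 methyltransferase complexes (r = 0.976), *Fmn2*, a formin (r = 0.976), and *Gab1*, a signalling adaptor (r = 0.975), all over 17 libraries. They lie on chromosomes 1, 13 and 8. *2410141K09Rik*, on chromosome 13, had 91.7 TPM in wild-type and 22.3 TPM in knockout cells at day 0 on average. Of the neighbours on chromosome 4, *Zfp978* was the closest, at rank 7 (r = 0.970), and 7 neighbours were among the 100 most similar genes.

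The genes around the 10 were tested with limma, since they were not part of the set. They are what was left of the region after the 10 were chosen with values known. Their reads may also not be separate from those of the 10. *Znf41-ps*, a neighbour, holds 56.86% of the windows of 100 bases of *Zfp991*, and *Gm13239* lies inside *Zfp980*. The part of this in the counts below was not tested. Within 0.5 Mb of the span there were 109 other genes, of which 88 passed the filter on low values. Of these 88, 13 were called in knockout against wild-type cells at day 0, and 13 of the 13 were lower (against 1.45% of all genes tested called lower). At day 1, 11 were called, and at day 3, 3 were called, all lower (against 1.76% and 0.773%). The count at day 0 was 8 without knockout replicate 2 at day 0 and 23 without wild-type replicate 2 at day 0 (16 lower and 7 higher), the lowest and highest over the libraries left out in turn. By place, 12 of the 13 at day 0 were among the 47 tested genes between the first and the last of the 10, 1 was among the 15 before the first, and 0 were among the 26 after the last.

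*Zfp978* and *Zfp989*, zinc finger genes inside the span, were among the neighbours with the largest fall. *Zfp978* had 68.8 and 68.4 TPM in wild-type cells at day 0, and the knockout libraries had 18.5, 18.4 and 16.7 TPM, a log2 difference of -1.89 (SE 0.15, adjusted p = 4.44e-06 in limma). *Zfp989* had 18.9 and 14.1 TPM against 3.35, 3.93 and 3.53 TPM, a log2 difference of -1.92 (SE 0.17, adjusted p = 1.40e-05 in limma). In both, the knockout libraries were far below the wild-type ones. *Gm13165*, an antisense gene that overlaps *Zfp600* without sharing exon bases, had the largest fall, -2.52 (SE 0.50, adjusted p = 0.00585 in limma), from 16.5 and 20.7 TPM to 6.02, 1.34 and 1.39 TPM. The library kit is not described as stranded, so intron reads of *Zfp600* and reads of *Gm13165* cannot be told apart.

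Of the 9 tested zinc finger neighbours, 4 were called lower at day 0 (*Zfp978*, *Zfp989*, *Zfp988* and *Zfp982*) and 4 at day 1 (*Zfp978*, *Zfp989*, *Zfp982* and *Zfp986*) with limma. At day 3, 0 of 9 were called with limma, where 3 had an adjusted p under 0.05 with less than a 2-fold change, and voom called 1. *Zfp988*, whose promoter carries the shared stretch of 15 bases and is 97.6% identical to that of *Zfp534*, had 69.5 and 58.5 TPM in the wild-type libraries at day 0, where the knockout mean was 25.8 ± 1.11 TPM (SD, n = 3) (log2 difference -1.27, SE 0.15, adjusted p = 0.000141 in limma). *Zfp984*, beyond the last of the 10, carries it too, and its log2 difference was -0.29 (SE 0.11, adjusted p = 0.114 in limma). *Gm13212*, the other carrier, before the first of the 10, had a log2 difference of -0.63 and had 3.96 and 6.85 TPM in the wild-type libraries. So genes with this stretch of promoter had different values in the same comparison.

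Among the other neighbours called lower in the knockout were pseudogenes within the span. The largest falls at day 1 were those of *Gm13239* (-2.04, SE 0.33, adjusted p = 0.000884 in limma), which lies inside *Zfp980*, *Gm8178* (-1.91, SE 0.45, adjusted p = 0.00966) and *Zfp978* (-1.86, SE 0.14, adjusted p = 9.20e-07). At day 3 they were those of *Gm13163* (-2.10, SE 0.50, adjusted p = 0.0190 in limma), *Gm13239* (-1.73, SE 0.33, adjusted p = 0.00505) and *Gm13147* (-1.64, SE 0.19, adjusted p = 0.000106). *Gm13147* had 18.3 ± 1.45 TPM in wild-type cells at day 3 (SD, n = 3), against 3.55, 4.82 and 7.95 TPM in the knockout libraries. By contrast *Gm13163* rested on 21 reads or fewer in each of these libraries. *Gm13239*, with 637 exon bases, was also weak at day 3, with means of 3.67 TPM in wild-type and 0.453 TPM in knockout cells. *Gm8178*, which lies inside *Zfp978* and has 646 exon bases, had means of 4.39 and 0.412 TPM at day 1. The 21 other protein-coding neighbours summed at day 0 to 836 ± 36.7 TPM in wild-type cells (SD, n = 2). They summed to 726 ± 5.50 TPM in knockout cells (SD, n = 3), or 86.9%. The 9 zinc finger neighbours were at 51.5%, with log2 differences that included -1.89 (*Zfp978*) and -0.29 (*Zfp984*). The 10 genes were at 35.5%, and nothing is read from their lower share, since they were chosen with these values known.

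**Figure D4:**
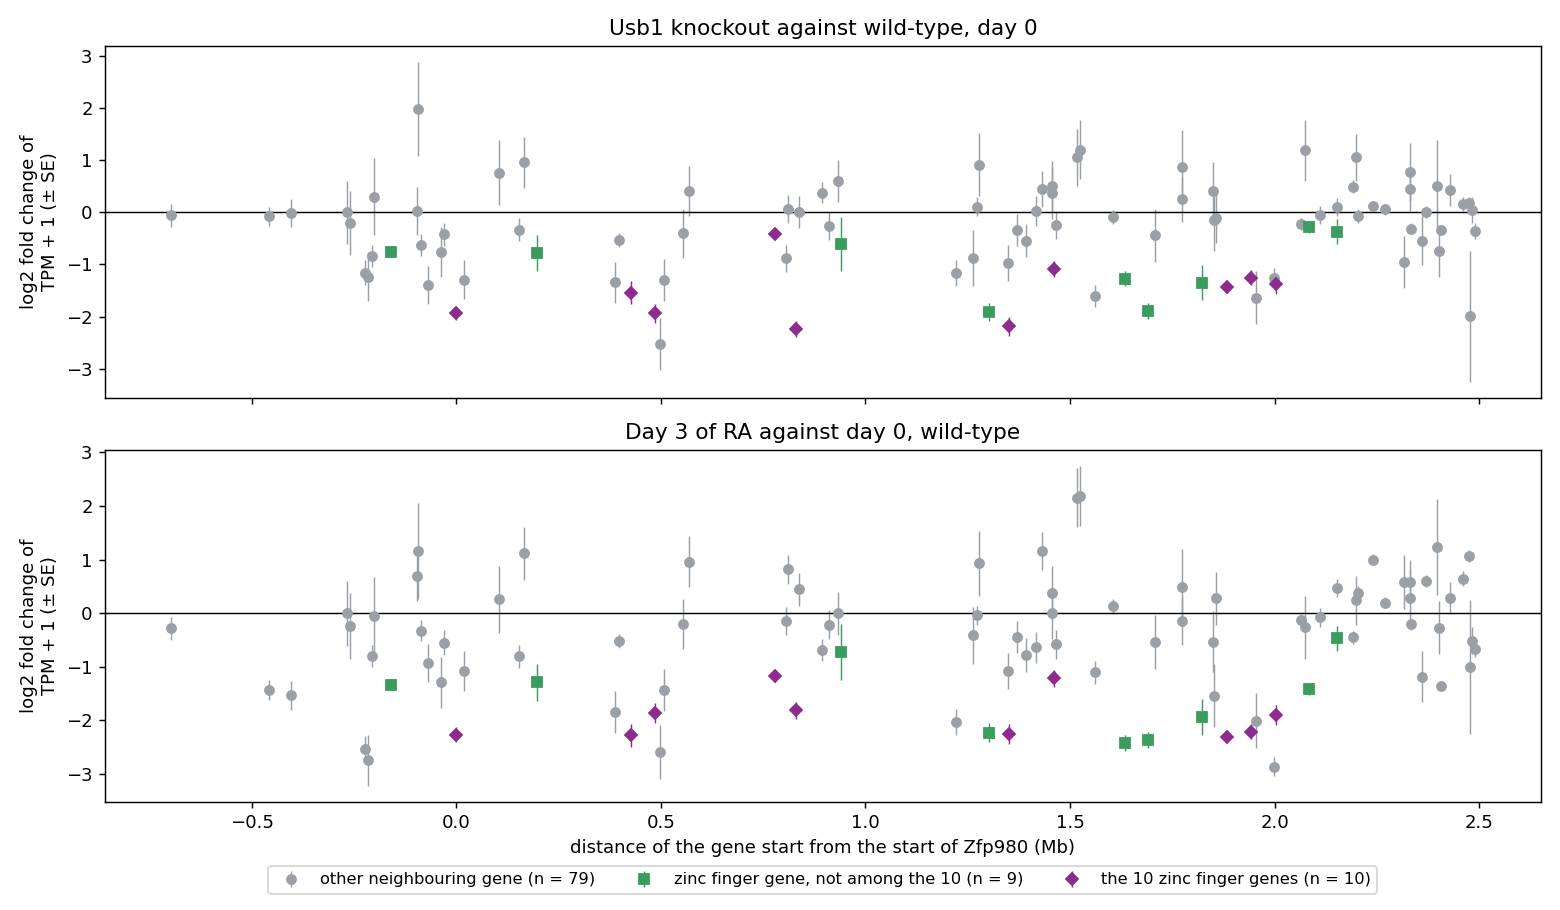
log2 fold change of TPM + 1 (y axis, with SE) against the distance of each gene's start from the start of *Zfp980* (x axis, Mb), for the 10 genes (diamonds), the 9 zinc finger neighbours (squares) and the 79 other tested neighbours (circles); top, knockout against wild-type cells at day 0, and bottom, day 3 against day 0 in wild-type cells. In the top panel the 10 genes lie between -2.23 and -0.41, among other genes on both sides of 0.

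RA also changed the neighbours. In wild-type cells at day 1, 12 of 88 were called with limma, 6 higher and 6 lower (against 9.99% and 3.88% of all genes tested). At day 3 the count was 29, with 5 higher and 24 lower (against 16.1% and 9.68%), and 7 of the 9 zinc finger neighbours were among the lower ones. *Zfp988* went to 11.2 ± 0.233 TPM (SD, n = 3) at day 3 in wild-type cells (log2 difference -2.41, SE 0.15, adjusted p = 4.61e-09 in limma). *Gm16211*, a lincRNA between *Zfp979* and *Zfp534*, had the largest fall, from 12.9 and 9.06 TPM to 0.667, 0.652 and 0.573 TPM (-2.86, SE 0.18, adjusted p = 6.23e-09 in limma). It was followed by *Gm13223* (-2.74) and *Gm13165* (-2.58), and the largest rises were those of *Gm13163* (2.19), *Gm13146* (2.16) and *Gm13142* (1.16), all 3 of them processed pseudogenes. These were listed at 0 in wild-type replicate 1 at day 0, and *Gm13142* in replicate 2 as well.

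At day 1 in wild-type cells the largest falls were those of *Nppb*, which encodes a natriuretic peptide (-1.92), *Gm13223* (-1.65) and *Gm13230* (-1.32). The largest rises were those of *Gm13163* (2.41), *Gm13238* (2.02) and *Gm13146* (1.67), which rest on few reads at day 0. All 3 were listed at 0 in wild-type replicate 1 at day 0, the library with the fewest genes of 1 read, and had 6, 3 and 12 reads in replicate 2. Without replicate 1 at day 0, 3 neighbours were called at day 1, 1 higher and 2 lower, and without replicate 2 there were 20, 12 higher and 8 lower. In knockout cells 1 neighbour was called at day 1, *Agtrap*, an angiotensin receptor-associated protein (-1.13, SE 0.08, adjusted p = 5.57e-08 in limma), against 2.87% of all genes tested called lower. At day 3, 20 were called, all lower (against 8.04%), of which 4 were zinc finger genes. The largest falls were those of *Gm13226* (-2.18), *Zfp988* (-1.98) and *Gm13239* (-1.52). The change from day 0 to day 1 differed between the genotypes in 0 of 88 neighbours with limma and with voom. In limma, 1 had an adjusted p under 0.05 with less than a 2-fold difference, and 12 had an unadjusted p under 0.05. For the change from day 0 to day 3 the genotypes differed in 4 of 88 (limma), 3 with a higher value in the knockout and 1 with a lower one, against 1.17% and 1.25% of all genes tested.

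Zinc finger genes elsewhere in the genome were counted by the same rule where their symbol was Zfp and a number. Those with other kinds of symbol were not counted. Of 335 other tested genes named Zfp, with a number, 1 was called higher (0.299%) and 3 lower (0.896%) in the knockout at day 0, where all genes tested had 1.6% and 1.45%. At day 3 of RA in wild-type cells 42 were called higher (12.5%) and 22 lower (6.57%), below the 16.1% and 9.68% of all genes tested (limma). Other rows of at least 10 such genes, on chromosomes 6, 7, 13 and 17, had 0 or 1 called gene each between the genotypes at any of the 3 days. A pair of rows on chromosome 17, of 23 and 11 genes, had medians of -0.27 and -0.29 on the log2 scale at day 0, with 9 and 5 genes at an unadjusted p under 0.05 in limma. The difference between rows was not tested. The row on chromosome 4, with 18 genes named in this way, had 12 called lower at day 0, made up of 8 of the members and 4 of the neighbours, and nothing is read from the members among them.

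Genes of the corepressors through which KRAB zinc finger proteins act were listed as well, and 13 of 15 symbols were in the table. With limma, and with voom, 0 of 13 were called between the genotypes at day 0, 1 or 3, while 6, 7 and 4 of them had an unadjusted p under 0.05 in limma. *Trim28*, the KRAB corepressor itself, was lower by a log2 difference of -0.38 in the knockout at day 0 (SE 0.05, adjusted p = 0.000308 in limma), less than 2-fold. The 13 differences at day 0 ran from -0.56 (*Atf7ip*, a partner of Setdb1) to 0.18 (*Pphln1*, a subunit of the HUSH complex). During RA, *Trim28* fell by 1.52 in wild-type (SE 0.05, adjusted p = 4.91e-12) and by 1.10 in knockout cells (SE 0.04, adjusted p = 3.89e-11) at day 3 on the log2 scale (limma). *Uhrf1*, which guides maintenance DNA methylation, fell by 1.39 and by 1.17, and none of the other 11 (*Setdb1*, *Atf7ip*, *Cbx1*, *Cbx3*, *Cbx5*, *Dnmt1*, *Morc2a*, *Mphosph8*, *Pphln1*, *Fam208a* and *Resf1*) was called at day 3 in either genotype.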

How the data were processed

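RNA-seq libraries of R1/E mESCs (wild-type and *Usb1* knockout, at day 0, 1 and 3 of RA) were prepared by the authors with a NEBNext Ultra kit and sequenced on an Illumina NovaSeq platform, with 2 or 3 biological replicates per group. The submitters' processing notes name HISAT2 2.1.0, StringTie 1.3.6 and GRCm38.p6. The authors deposited TPM, computed from gene length and the reads on each gene, and used DESeq2 for differential expression. TPM are not counts, so limma 3.58.1 (R 4.3.3) was fitted here to log2(TPM + 1), with the means of the 6 groups, for the 21871 genes that reached 1 TPM in 2 or more libraries. Adjusted p is by Benjamini-Hochberg over these genes, separately for each comparison, and calls required it to be under 0.05 and the fold to be 2 or more. The fit was tested on simulated data.

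Reads were recovered from TPM, exon length in GENCODE M21 and the step of each library, and 95.9% to 96.7% of the genes above 0 gave whole reads (within 0.01). Depth sets the counting error of each value. Promoters were taken from RefSeq and aligned with Biopython 1.88, and tables and figures were made with Python 3.11.15, pandas 2.3.3, numpy 2.4.6 and matplotlib 3.10.9. Neighbours were named by rule, as those with the largest changes among the called genes (up to 3 in each direction), and a few others were named after their values were seen. The 10 genes and the lists were chosen with earlier results of these data known. A gene of the list of RA-responsive genes is not reported here. Other settings tried were no filter, a minimum of 5 TPM, a pseudocount of 0.1, adjusted p alone, 2 other scalings, the libraries of a comparison alone, a replicate block, voom on recovered reads, and leaving out each library.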

Additional observations from a re-analysis of the deposited data

Results flagged for a closer look

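For 4 neighbouring genes the change from day 0 to day 3 of RA differed between the genotypes when the difference itself was tested (interaction contrast in limma, given as knockout change minus wild-type change on the log2 scale). *Zfp989* differed by 1.62 (SE 0.23, adjusted p = 0.00131 in limma), with means that went from 16.5 to 2.72 TPM in wild-type cells and from 3.60 to 2.03 TPM in the knockout. *Gm13165* differed by 2.50 (SE 0.67, adjusted p = 0.0435 in limma), from 18.6 to 2.38 TPM against 2.92 to 2.46 TPM. *Gm16211* differed by 1.88 (SE 0.25, adjusted p = 0.000649 in limma), falling to 0.631 TPM in wild-type cells, and going from 3.96 to 1.53 TPM in the knockout. *Gm13163* differed the other way, by -3.30 (SE 0.75, adjusted p = 0.0205 in limma), and was listed at 0 in 1 wild-type library at day 0 and at 4.03 TPM in the other. The first 3 were lower in the knockout at day 0.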

How the results depend on the processing

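Counts of the 88 tested neighbours moved by more than 1.5 times under these settings. With adjusted p alone, the counts were 24 at day 1 and 9 at day 3 for knockout against wild-type cells, 26 at day 1 in wild-type cells, 11 at day 1 and 31 at day 3 in knockout cells, and 1 for the genotype difference in the change to day 1, which follows from dropping the 2-fold minimum. With the libraries of the comparison alone, which leaves fewer samples for the spread, they were 2 at day 0 and 0 at day 3 between the genotypes (limma, 23 and 13 at an unadjusted p under 0.05), 5 at day 1 in wild-type and 2 at day 1 in knockout cells, and 2 for the genotype difference in the change to day 3. Between the genotypes at day 1 there were 7 with quantile normalization and 6 with an equal median, and a pseudocount of 0.1 gave 2 at day 1 in knockout cells (the cause was not tested). Leaving out 1 library gave 8 to 23 (day 0), 9 to 13 (day 1) and 2 to 4 (day 3) between the genotypes. In wild-type cells it gave 3 (without replicate 1 at day 0) to 20 (without replicate 2 at day 0) at day 1 and 24 to 33 at day 3, and in knockout cells 1 to 2 and 15 to 21. For the genotype difference it gave 0 to 7 (the 7 without wild-type replicate 2 at day 0) and 2 to 9. Of the 10 genes, 6 were called at day 0 and 1 at day 3 with the libraries of the comparison alone, against 9 and 3, and 5 were called at day 1 in wild-type cells with an equal median, against 1. The share of all genes called under these settings is not given here, so nothing is read from these counts of the 10.

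Same-numbered libraries did not deviate together (median r of -0.004 over 40 pairs, from -0.13 to 0.12), so the replicate numbers do not pair them. With a replicate block the neighbour counts were 11, 10 and 3 between the genotypes at day 0, 1 and 3, 12 and 28 in wild-type and 1 and 18 in knockout cells at day 1 and 3, and 0 and 3 for the genotype difference, each within 1.5 times of the reported count.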
